A study of Rattus norvegicus with 12 samples.

Results

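The 85 genes described here are the protein-coding genes whose level in rat bladder was at most 50% of the control mean at each of days 7, 14 and 28 after the spinal cord was cut. They were chosen by their CPM, each count divided by the library total and scaled to a common size, with a control mean of at least 5 CPM and all 9 injured libraries below the lowest control library. Of 40154 genes in the table, 22764 were protein-coding and 11249 of these had a control mean of at least 5 CPM. The values alone were met by 98 genes, of which 13 were left out by name, among them all Kcn, Wnt, Sfrp and Hox genes. For these genes, every level set beside control was therefore used in choosing them, so it is a description and carries no test.

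The samples were bladder RNA of female Wistar rats of 10 to 12 weeks, 3 samples at day 7, 3 at day 14 and 3 at day 28 after the cord was cut through at thoracic segment 10 with the dura kept whole, and 3 samples of normal controls. The series text gives the level of the cut as a range that ends at that segment. Whole bladder was the source of total RNA, which was depleted of ribosomal RNA. The labels number the replicates without saying whether each is a separate animal, so p-values measure the spread between these samples.

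Transection above the sacral cord cuts the bladder off from the brainstem centre that coordinates filling and voiding, while the sacral reflex arc stays in place. The wall then goes through a phase without reflex contraction, is overstretched by retained urine, and later contracts against a closed outlet, with hypertrophy, inflammation and remodelling of its nerves. Bladder wall is made of detrusor smooth muscle, fibroblasts and interstitial cells, urothelium, vessels, and autonomic and sensory fibres wrapped by Schwann cells.

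Few genes met the rule at all 3 times. At day 7, 461 genes were halved with that day's 3 libraries below the lowest control, at day 14 there were 172 and at day 28 there were 356. By the same values turned round, 93 genes were at least doubled at all 3 days. These counts were taken before any gene was left out by name, so the halved count to set beside 93 is 98. Over all 11249 genes at 5 CPM or more the median level was 90.3% of control at day 7, 101% at day 14 and 101% at day 28, so on the CPM scale the typical gene was itself slightly lower at day 7.

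The 85 genes were lowest at day 7. Their median stood at 23.1% of control at day 7, against 40.3% at day 14, and was 32.6% at day 28. The lowest level was at day 7 in 53 genes, at day 14 in 8 and at day 28 in 24, and the highest of the 3 was at day 14 in 56. At day 7, 45 of them stood at 25% of control or less, against 11 at day 14 and 23 at day 28. Individual genes reached from 5.45% to 49.1% at day 7, 10.9% to 49.96% at day 14 and 6.71% to 48.6% at day 28. In a bulk sample, fewer cells of a type and less RNA per cell cannot be told apart.

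Summed over the 85 genes, the day-7 libraries held 993, 600 and 510 CPM, the day-14 libraries 1238, 975 and 1076, the day-28 libraries 1050, 933 and 779, and the controls 2721, 2702 and 2742. Every injured library lay below the controls, as the rule required gene by gene, and the control sums were almost level. The median coefficient of variation per gene was 47.2% at day 7, 29.6% at day 14 and 31.4% at day 28, and 12.6% in controls. The rule favours genes with even controls, so the lower spread of controls is in part set by the choice of genes. Day-7 replicate 1 was the highest of its group for 65 genes and replicate 3 the lowest for 55.

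Depth was 28765686 to 30747936 counts a library at day 7, 26275314 to 28663415 at day 14, 28847346 to 29510548 at day 28 and 27044344 to 28412801 in controls, so that all day-7 and day-28 libraries were slightly deeper than the deepest control. CPM is scaled to this depth. Day-7 replicate 3 carried 2.89% haemoglobin transcripts, against 0.0360% to 0.371% in the other 11 libraries, and its part in the day-7 values was not tested. Summed urothelial markers, 26 genes, lay at 6943 to 8195 CPM at day 7, 11020 to 13297 at day 14, 9859 to 13519 at day 28 and 11188 to 11882 in controls. The 30 smooth muscle markers lay at 32829 to 54018, 35086 to 45148, 17503 to 35510 and 39430 to 42067 CPM in the same order of groups. Markers of macrophages and myeloid cells, 16 genes, summed to 2345 to 3236 CPM at day 7, 1655 to 3159 at day 14, 2841 to 3600 at day 28 and 1059 to 1230 in controls. The part of these shifts in the levels of the 85 genes was not tested.

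**Figure D1:**
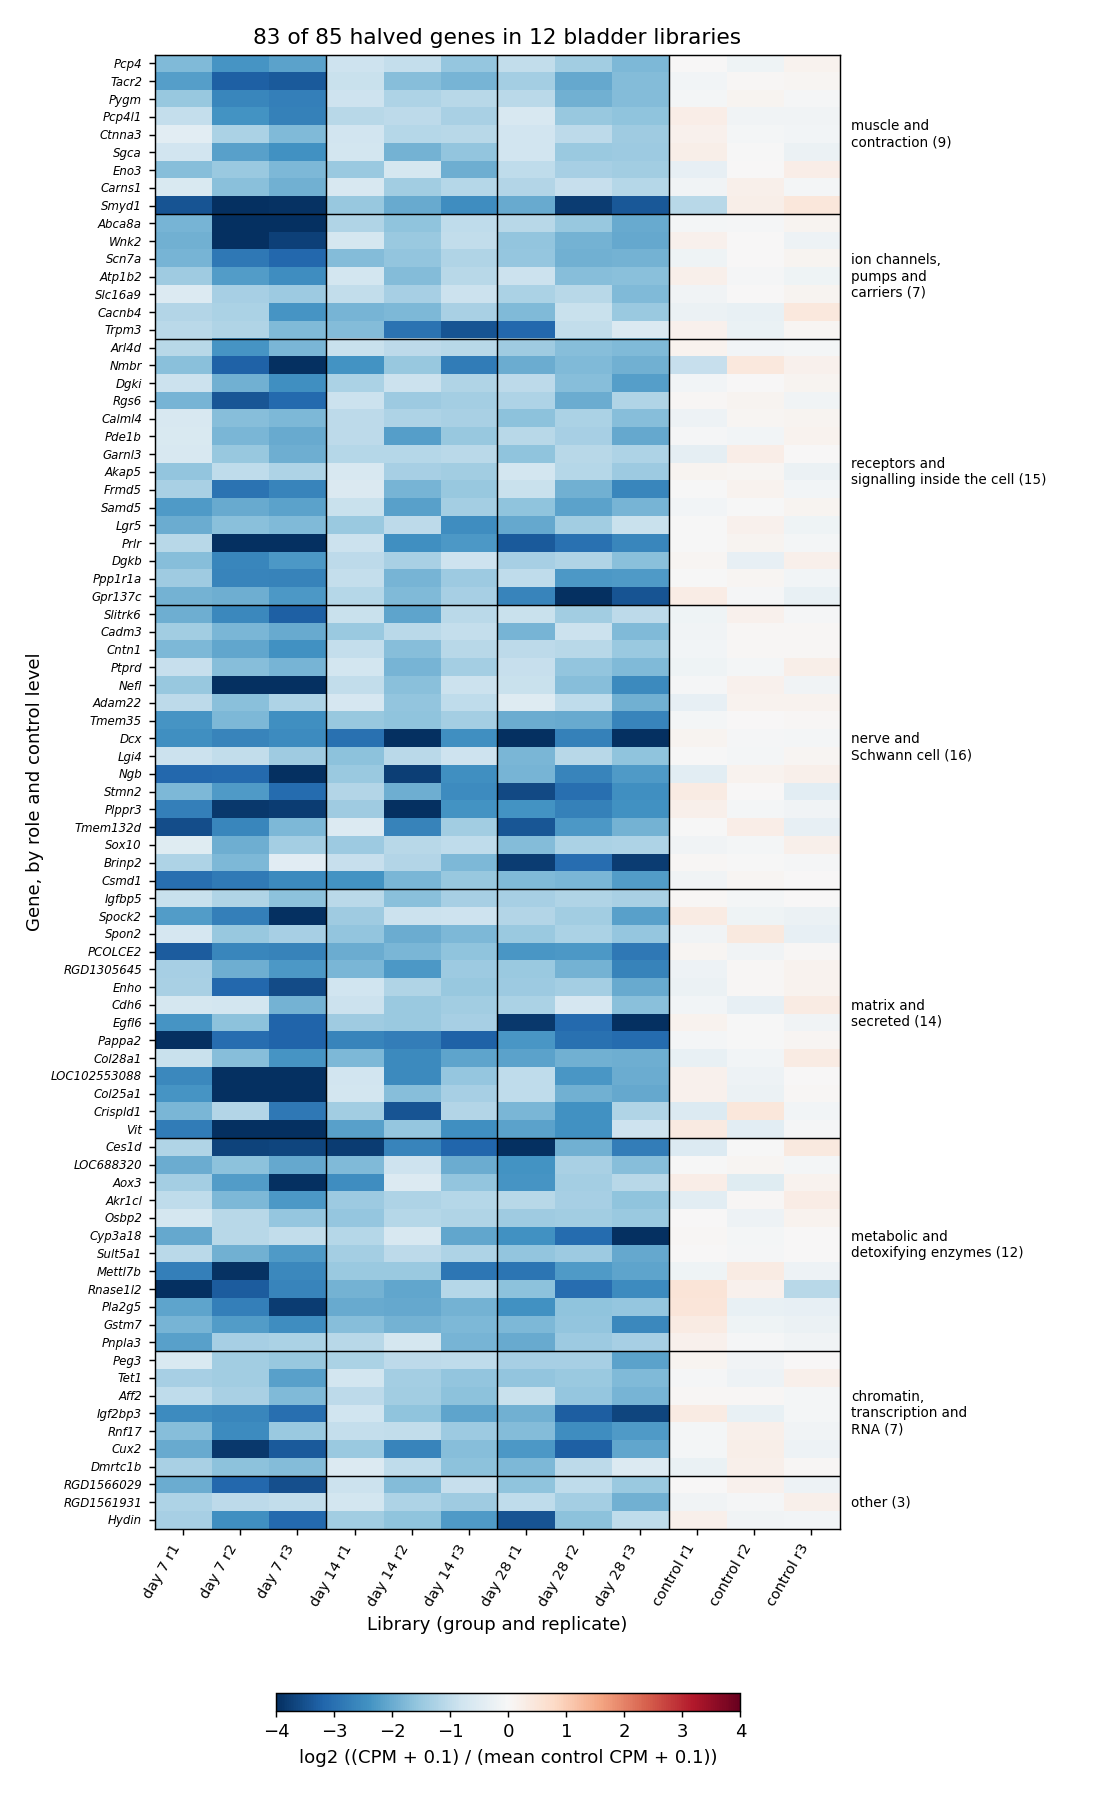
Colour gives log2 of (CPM + 0.1) over (mean control CPM + 0.1) for 83 of the 85 genes (rows, by role and then by control level) in the 12 libraries (columns). All day-7, day-14 and day-28 cells are blue, which the rule fixed; the depth of blue is deepest at day 7, where 45 of the 85 genes were at 25% of control or less.

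The smallest margins lay at day 14. The members closest to the limit were the small GTPase Arl4d at 49.4% of control, the proteoglycan Spock2 at 49.5% and the junction protein Ctnna3 at 49.96%, each at day 14. Just outside were Dnase1l2 at 50.1%, the muscle creatine kinase Ckm at 50.2% and the G-protein regulator Rgs2 at 50.3%, also at day 14.

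Sequence context was examined in RefSeq windows on assembly GRCr8 that reach from 250 bases before to 50 bases after each gene's start. A window was found for 62 of the 85 genes, and coordinates of these windows are on GRCr8, whereas all gene positions elsewhere are on rn6, the build in the submitters' processing notes. Median counts of the CpG dinucleotide were 10 per window in the 62 genes, 21 in the 8999 windows of protein-coding genes at 5 CPM or more in controls, and 7 in all 27457 windows. GC content was 57.5%, 61.3% and 52.3% in the same order. The letters GGGCGG, on either strand, stood in 48.4% of the 62, 64.1% of the 8999 and 34.9% of all windows. The letters TATAAA stood in 6 of the 62, or 9.68%, against 6.31% of the 8999 and 14.3% of all windows. A cyclic AMP response element, TGACGTCA, stood in 3 of the 62, or 4.84%, against 3.13% and 1.91%. The CArG box of smooth muscle genes matched 0 of the 62, 1.36% of the 8999 and 1.64% of all windows. A match is a description of letters and not of a bound site.

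Windows of 4 genes are printed because they carry the listed motifs in genes named below: TATAAA in a sodium pump subunit and a calmodulin-binding protein, and TGACGTCA in an imprinted zinc finger gene and the GTPase at the limit of the rule. Each run gives the 250 bases before the start, 5′ to 3′ on the gene's strand, with the motif in capitals. In Atp1b2 the motif lies 52 to 47 bases before the start and in Pcp4l1 62 to 57. In Peg3 it lies 190 to 183 bases before the start and in Arl4d 45 to 38. The Atp1b2 run covers chr10:54823709-54823958 (minus strand, GRCr8). The Pcp4l1 run covers chr13:86144900-86145149 (minus strand, GRCr8). The Peg3 run covers chr1:76130744-76130993 (plus strand, GRCr8). The Arl4d run covers chr10:87100673-87100922 (plus strand, GRCr8).
Atp1b2: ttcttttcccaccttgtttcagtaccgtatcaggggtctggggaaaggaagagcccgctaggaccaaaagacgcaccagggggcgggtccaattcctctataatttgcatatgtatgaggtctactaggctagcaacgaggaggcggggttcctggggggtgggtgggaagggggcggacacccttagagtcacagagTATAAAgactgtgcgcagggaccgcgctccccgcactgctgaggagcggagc
Pcp4l1: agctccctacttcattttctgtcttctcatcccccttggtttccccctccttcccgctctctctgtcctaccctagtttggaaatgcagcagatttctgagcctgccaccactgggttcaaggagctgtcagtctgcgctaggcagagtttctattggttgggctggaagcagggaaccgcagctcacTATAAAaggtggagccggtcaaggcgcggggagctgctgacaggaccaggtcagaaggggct
Peg3: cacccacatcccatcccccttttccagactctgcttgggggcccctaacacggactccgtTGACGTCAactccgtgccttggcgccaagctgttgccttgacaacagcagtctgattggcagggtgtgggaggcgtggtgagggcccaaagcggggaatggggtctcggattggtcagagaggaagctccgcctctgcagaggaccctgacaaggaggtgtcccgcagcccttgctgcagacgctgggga
Arl4d: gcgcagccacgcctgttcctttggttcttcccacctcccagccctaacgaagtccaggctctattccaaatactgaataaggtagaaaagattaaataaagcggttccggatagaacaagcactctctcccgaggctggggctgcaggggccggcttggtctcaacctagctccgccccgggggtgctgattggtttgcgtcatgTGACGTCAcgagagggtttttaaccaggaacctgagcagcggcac

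Genes of muscle and contraction made up 9 of the 85. Pcp4 (chromosome 11, 36851035 to 36912272, plus strand), a small protein that binds calmodulin, had 52.9, 34.9 and 40.9 CPM at day 7, 101, 92.9 and 61.9 at day 14, 91.6, 69.6 and 51.8 at day 28, and 185, 159 and 199 in controls. All 3 day-14 libraries lay above the 3 day-7 libraries. Per length it stood at 124, 251 and 205 TPM (abundance per transcript length, scaled to one total per library) at days 7, 14 and 28 and 521 TPM in controls, the highest of the 85 at day 14, at day 28 and in controls. Its relative Pcp4l1 (chromosome 13, 89542377 to 89565920, minus strand), whose upstream sequence is printed above, averaged 28.5%, 44.9% and 43.9% of control at the 3 days.

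Tacr2 (chromosome 20, 31892515 to 31905153, plus strand) encodes the receptor through which neurokinin A contracts bladder muscle. It had 24.8, 11.7 and 10.9 CPM at day 7, 60.9, 35.0 and 31.2 at day 14, 44.3, 27.2 and 33.9 at day 28, and 104, 116 and 120 in controls. Every day-14 and day-28 library lay above every day-7 library and far below the lowest control. Muscle glycogen phosphorylase, Pygm (chromosome 1, 221756325 to 221771142, plus strand), which releases glucose from glycogen, had 18.6, 8.63 and 7.94 CPM at day 7, 30.0, 22.5 and 24.4 at day 14, 25.2, 13.9 and 15.7 at day 28 and 50.2, 56.9 and 51.5 in controls. Here too day 14 lay above day 7 without overlap.

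The rest of the muscle genes are better known from striated muscle. Smyd1, a methyltransferase needed for sarcomere assembly, had the lowest share of control at day 7, with 0.869, 0.262 and 0.585 CPM, against 3.62, 2.55 and 1.80 at day 14, 2.54, 0.659 and 0.915 at day 28 and 4.79, 12.2 and 14.5 in controls. Control replicate 1 was low for this gene, and a same-strand transcript that overlaps it holds more counts, so its value is uncertain. The dystrophin-complex protein Sgca stood at 32.7%, 39.6% and 43.4% of control at days 7, 14 and 28, the muscle enolase Eno3 at 31%, 40.6% and 41.9%, and carnosine synthase Carns1 at 40.9%, 49.0% and 47.4%. The 18 skeletal muscle markers, none of them among the 85 genes, summed to 1832, 1053 and 959 CPM at day 7, 368, 739 and 259 at day 14, 301, 391 and 179 at day 28, and 277, 325 and 280 in controls. The day-7 libraries were the highest in that sum, but the genes of the list did not move together. Of 13 tested by edgeR, 3 were called higher than control and 1 lower at day 7, with a median log2 difference of −0.02. Over all genes tested, 15.6% were called higher and 10.5% lower. The 3 higher at day 7 were Acta1 by 4.05 ± 0.48 (adjusted p = 0.000246, edgeR), Myh1 by 5.52 ± 0.82 and Myh2 by 4.80 ± 0.86. At day 14 the same 3 were called higher and 0 lower, against 1.45% and 0.995% of all genes. Each of these day-14 calls was lost in at least 4 alternatives. At day 28, 1 was called higher and 2 lower, against 11% and 7.51%. Ckm, also a gene of this list, stood at no more than 50.2% of control at any of the 3 days.

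Ion channels, pumps and carriers numbered 9 and had the lowest median at day 7 of the role groups, 17.5% of control, with 42% at day 14 and 35.1% at day 28. The sodium pump's beta-2 subunit Atp1b2 (chromosome 10, 56205622 to 56211879, minus strand), of the TATAAA window above, had 21.6, 12.3 and 10.3 CPM at day 7, 35.0, 17.5 and 26.6 at day 14, 31.8, 17.7 and 18.2 at day 28, and 66.7, 55.8 and 51.6 in controls.

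Scn7a (chromosome 3, 52775779 to 52877365, minus strand), a sodium-sensing channel of glia, had 28.6, 14.4 and 11.9 CPM at day 7, 31.5, 34.8 and 45.5 at day 14, 35.6, 27.8 and 27.9 at day 28 and 93.7, 107 and 114 in controls. The lipid transporter Abca8a (chromosome 10, 98319480 to 98390484, minus strand) averaged 17.9 ± 17.2 CPM at day 7, 58.1 ± 11.4 at day 14, 48.5 ± 14.9 at day 28 and 138 ± 10.8 in controls (SD, n = 3 each). Wnk2, a kinase that regulates ion transport, averaged 15.4 ± 13.3, 57.2 ± 15.1, 32.7 ± 5.41 and 116 ± 14.6 CPM in the same groups. In both, day-7 replicate 1 was several times its group mates, with 37.8 CPM of Abca8a against 8.11 and 7.84. The cation channel Trpm3 departed from the usual order, at 39.1% of control at day 7, 15.8% at day 14 and 41.9% at day 28.

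Receptors and signalling proteins numbered 15, with medians of 23.1%, 43.1% and 33.2% of control at days 7, 14 and 28. The neuromedin B receptor Nmbr (chromosome 1, 8933744 to 8945850, plus strand), a bombesin-type receptor, had 7.72, 2.58 and 1.01 CPM at day 7, 4.72, 8.72 and 3.50 at day 14, 6.24, 7.31 and 6.57 at day 28 and 13.2, 33.5 and 28.4 in controls. Control replicate 1 again was the low control. The prolactin receptor Prlr had 4.45, 0.392 and 0.260 CPM at day 7, 5.25, 1.67 and 1.87 at day 14, 0.847, 1.14 and 1.49 at day 28, and 9.57, 10.4 and 9.06 in controls. Its day-7 and day-14 means rest largely on replicate 1 of each. Lgr5, a receptor of R-spondins that amplifies Wnt signalling, stood at 28.3%, 33.4% and 38.3% of control.

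Inside the cell, the set held both diacylglycerol kinases Dgkb and Dgki, the G-protein regulator Rgs6, the phosphodiesterase Pde1b, which calmodulin activates, the kinase anchor Akap5, and Ppp1r1a, an inhibitor of protein phosphatase 1. Rgs6 had 5.11, 1.67 and 2.11 CPM at day 7, 10.4, 6.77 and 7.27 at day 14, 8.0, 4.71 and 8.20 at day 28 and 19.3, 20.3 and 16.9 in controls. Dgkb stood at 21.8%, 47.7% and 37.5% of control and Dgki at 32.8%, 46.4% and 33.2%. Gpr137c, a membrane protein of the GPR137 family, went lowest late: 1.60, 1.54 and 1.17 CPM at day 7, 2.78, 1.74 and 2.40 at day 14, 0.915, 0.208 and 0.474 at day 28 and 7.67, 5.95 and 5.01 in controls.

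**Figure D2:**
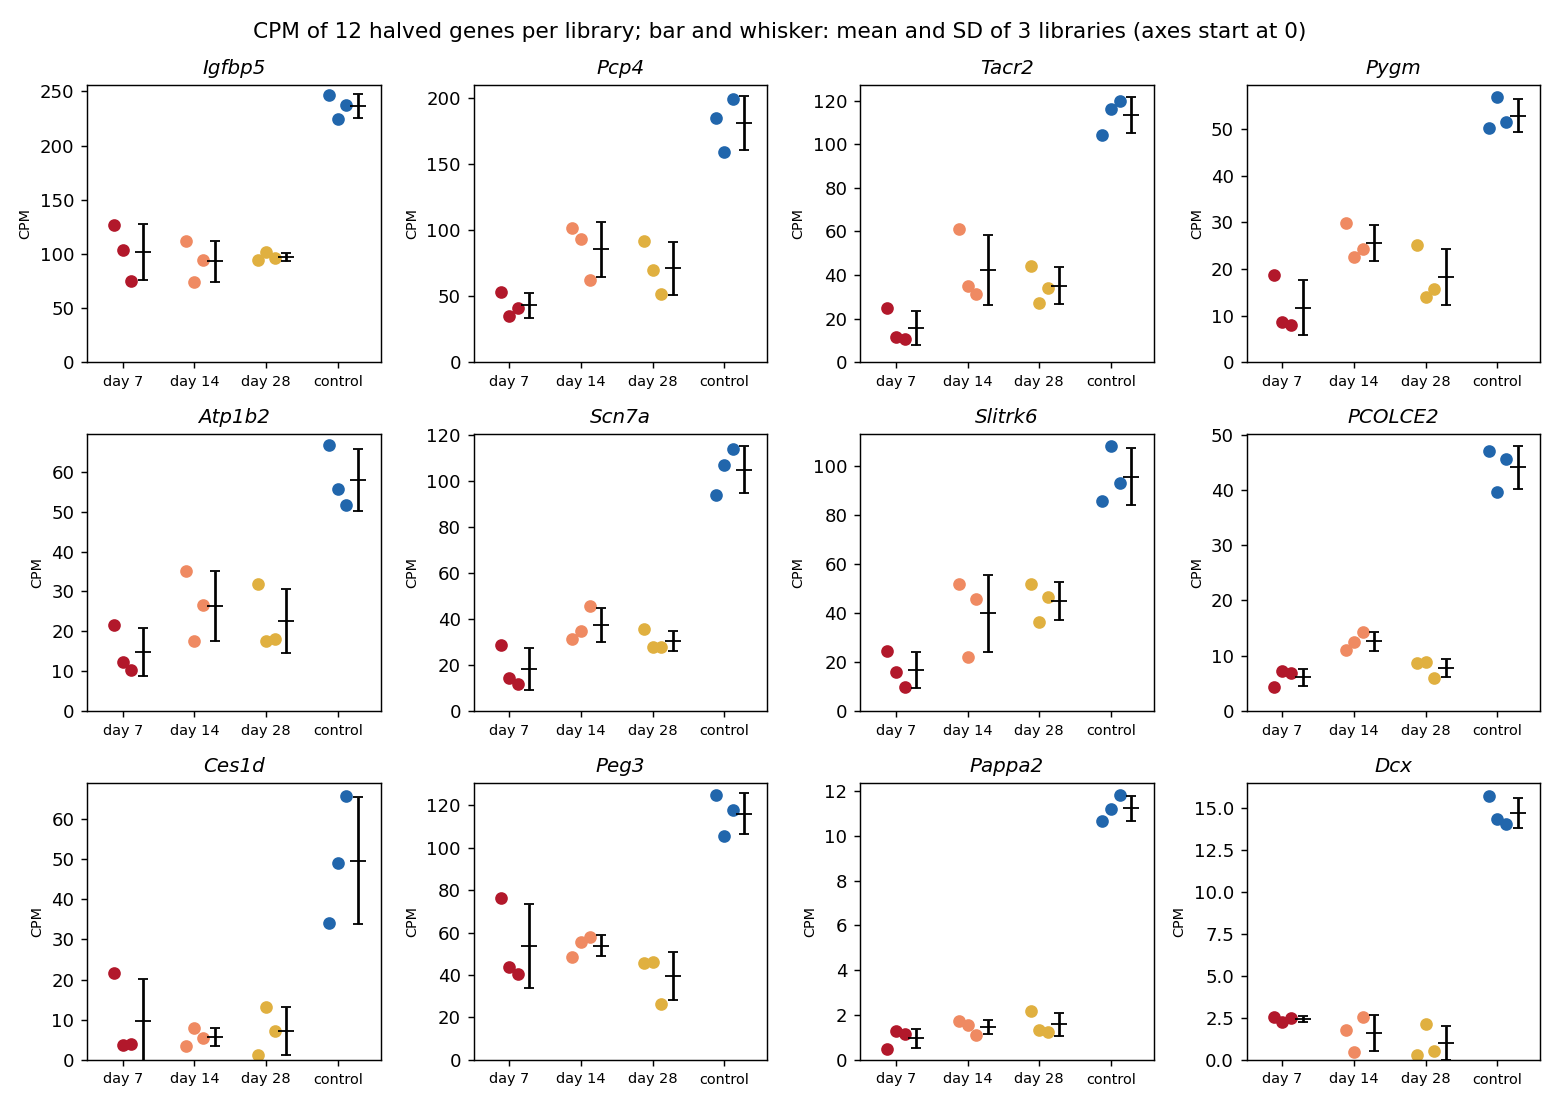
CPM of 12 of the halved genes in each library (points; day 7, day 14, day 28 and control from left to right) with the group mean and SD of 3 libraries (bar and whisker, cut at 0). Tacr2 sits at 10.9 to 24.8 CPM at day 7 and 104 to 120 in controls; Igfbp5 is level over the 3 days, whereas Slitrk6 and Tacr2 are lowest at day 7.

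Nerve and Schwann cell genes, as sorted by hand, numbered 16 of 85, with medians of 20.6%, 41.4% and 29.3% of control. Among adhesion and synapse-organizing proteins, Slitrk6 (chromosome 15, 95507632 to 95514259, minus strand) had 24.7, 15.8 and 9.95 CPM at day 7, 51.8, 22.2 and 45.6 at day 14, 51.7, 36.3 and 46.6 at day 28, and 85.8, 108 and 93.2 in controls. Day 28 lay wholly above day 7. Cadm3 (chromosome 13, 91842311 to 91873126, minus strand), an adhesion molecule that links axons to Schwann cells, averaged 27.5 ± 6.16 CPM at day 7, 40.6 ± 7.28 at day 14, 33.7 ± 13.9 at day 28 and 90.6 ± 6.74 in controls (SD, n = 3 each). Contactin 1, Cntn1, an axonal adhesion protein, had 12.8, 10.5 and 8.23 CPM at day 7, 23.3, 13.8 and 21.0 at day 14, 21.9, 20.7 and 15.9 at day 28, and 41.8, 46.3 and 46.7 in controls.

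Proteins of the axon and its growth included the light neurofilament subunit Nefl, with 8.62, 0.883 and 1.43 CPM at day 7, 12.6, 7.71 and 13.6 at day 14, 13.5, 7.56 and 4.17 at day 28, and 24.0, 28.0 and 22.6 in controls. Doublecortin, Dcx (chromosome X, 115098675 to 115175515, minus strand), a microtubule-binding protein of young neurons, had 2.57, 2.26 and 2.5 CPM at day 7, 1.75, 0.488 and 2.58 at day 14, 0.305, 2.15 and 0.508 at day 28, and 15.7, 14.3 and 14.0 in controls. Its mean was 16.7%, 10.9% and 6.73% of control at the 3 days, and 10.9% was the lowest of the 85 genes at day 14. The microtubule regulator Stmn2 stood at 19.4%, 28.3% and 11.8%, and neuroglobin, Ngb, an oxygen-binding protein of neurons, at 7.73%, 19.9% and 20.7%.

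Sox10, the transcription factor that defines the Schwann cell lineage, had 4.59, 1.60 and 2.44 CPM at day 7, 2.28, 2.97 and 3.14 at day 14, 1.86, 2.63 and 2.71 at day 28 and 5.88, 6.10 and 7.42 in controls. Lgi4, the Schwann cell ligand in myelination, stood at 47.3%, 44.7% and 35.4% of control and its receptor Adam22 at 40.5%, 48.5% and 48.6%. Lgi4 is uncertain because Fxyd3, on the opposite strand, overlaps it and holds 28418 counts over the 12 libraries against 2751. Brinp2, a neural protein of the BRINP family, stayed at 47.5% and 41.3% of control at days 7 and 14 and stood at 7.44% at day 28.

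Matrix and secreted proteins, 14 genes, had medians of 20%, 32.6% and 31% of control. Igfbp5 (chromosome 9, 80154230 to 80166813, minus strand), which binds insulin-like growth factors, was the most counted of the 85, with 127, 103 and 75.1 CPM at day 7, 112, 73.7 and 94.7 at day 14, 94.6, 102 and 96.3 at day 28, and 246, 225 and 238 in controls. It hardly differed between the days. Pappa2 (chromosome 13, 76389150 to 76660248, minus strand), a protease that cleaves this binding protein, had 0.487, 1.28 and 1.14 CPM at day 7, 1.71, 1.57 and 1.09 at day 14, 2.17, 1.32 and 1.25 at day 28, and 10.7, 11.2 and 11.8 in controls, which leaves 8.61%, 13% and 14.1%.

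PCOLCE2 (chromosome 8, 103459219 to 103484557, plus strand), an enhancer of procollagen processing, had 4.31, 7.16 and 6.83 CPM at day 7, 11, 12.5 and 14.3 at day 14, 8.64, 8.80 and 5.93 at day 28, and 47.0, 39.7 and 45.5 in controls. Spock2 (chromosome 20, 29654926 to 29679927, plus strand), the proteoglycan testican-2, had 23.0, 16.4 and 6.73 CPM at day 7, 41.0, 60.3 and 61.5 at day 14, 48.6, 41.9 and 24.3 at day 28, and 137, 97.2 and 94.1 in controls. Spon2 ran the other way, with 45.6, 25.5 and 28.9 CPM at day 7, 24.8, 18.5 and 21.3 at day 14, 26.1, 30.2 and 25.2 at day 28, and 66.3, 95.9 and 58.3 in controls. Its day-14 libraries were the lowest and did not overlap day 7.

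Egfl6, a secreted protein with EGF-like repeats, had 2.12, 3.57 and 1.14 CPM at day 7, 4.15, 3.94 and 4.38 at day 14, 0.678, 1.21 and 0.373 at day 28, and 12.4, 11.1 and 10.2 in controls. Vitrin, Vit, a matrix protein, had 0.695, 0.196 and 0.0650 CPM at day 7, 1.14, 1.81 and 0.918 at day 14, 1.15, 0.936 and 3.02 at day 28, and 6.97, 4.07 and 5.30 in controls. The collagen Col25a1 and LOC102553088 had near-equal values in most libraries, may share reads, and are uncertain.

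Enzymes of metabolism and detoxification, 12 genes, had medians of 24.3%, 38.1% and 28.6% of control. Carboxylesterase 1d, Ces1d (chromosome 19, 15195514 to 15239827, plus strand), which hydrolyses lipids and drugs, had 21.7, 3.70 and 3.84 CPM at day 7, 3.50, 7.92 and 5.44 at day 14, 1.12, 13.1 and 7.22 at day 28, and 34.0, 49.1 and 65.8 in controls. Its injured libraries were scattered within each day, and controls also spread. The cytochrome P450 Cyp3a18 had 2.22, 4.28 and 4.68 CPM at day 7, 4.26, 5.97 and 2.15 at day 14, 1.69, 1.04 and 0.441 at day 28, and 9.85, 8.84 and 9.61 in controls. Aldehyde oxidase 3, Aox3, stood at 21.6%, 39.5% and 34.5% of control, the carbonyl reductase Cbr2, listed as LOC688320, at 26.9%, 36.7% and 29.6%, and the secreted phospholipase Pla2g5 at 14.0%, 24.2% and 27.6%. Ces1d, Cyp3a18, Aox3, Gstm7, Akr1cl, Sult5a1, Rnase1l2 and Dmrtc1b belong to families with close copies, between which reads of 50 bases may not be placed reliably, and are uncertain.

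Chromatin, transcription and RNA proteins, 7 genes, were the group least reduced at day 7, with a median of 33.2% of control, then 44.0% and 32.8%. Peg3 (chromosome 1, 70210810 to 70237450, plus strand), the paternally expressed zinc finger protein of the TGACGTCA window, had 76.2, 43.9 and 40.6 CPM at day 7, 48.3, 55.6 and 57.7 at day 14, 45.7, 46.2 and 26.5 at day 28, and 125, 106 and 118 in controls. Tet1, which oxidizes methylcytosine in DNA, stood at 33.2%, 44.0% and 32.8% of control, and the RNA-binding protein Igf2bp3 at 14.9%, 37.5% and 14.3%. Of the other 3 genes, RGD1566029, now named Shisal1, had 19.1, 8.44 and 6.47 CPM at day 7, 41.4, 22.5 and 39.8 at day 14, 24.7, 37.5 and 26.6 at day 28, and 76.2, 84.0 and 65.5 in controls.

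**Figure D3:**
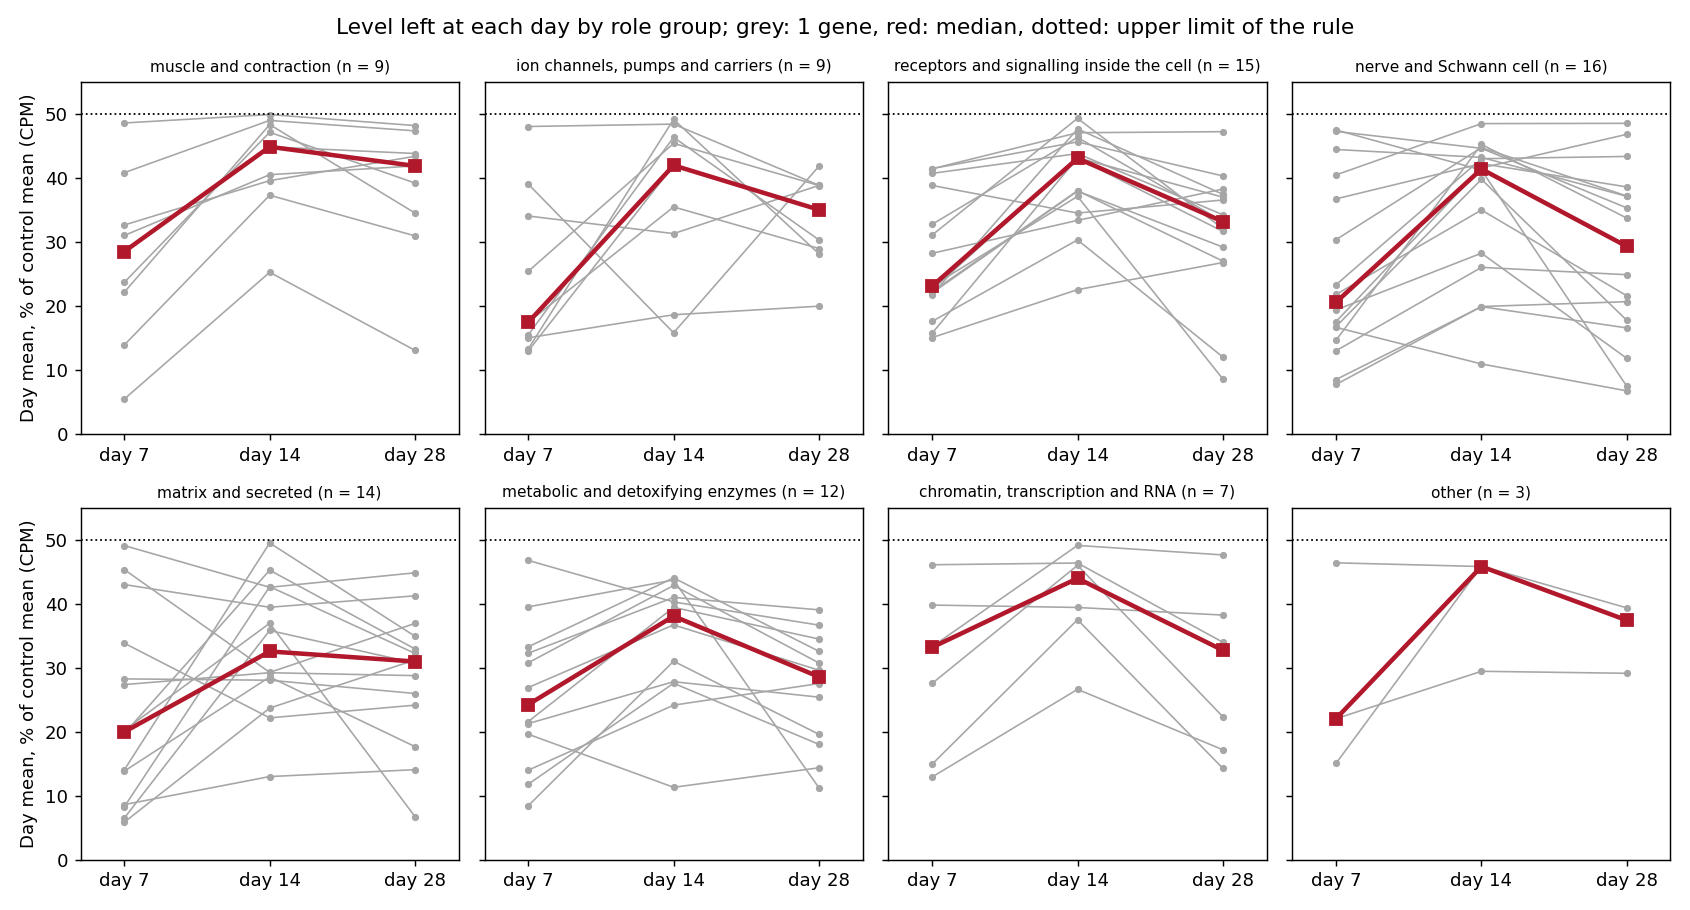
Day means as a percentage of the control mean (CPM) at days 7, 14 and 28 for each gene (grey lines), with the median of the role group (red) and the 50% limit of the rule (dotted). In each of the 8 groups the median is highest at day 14; nerve and Schwann cell genes stand at 20.6%, 41.4% and 29.3%.

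The rule set no order among the 3 days, but it capped the level at each day and kept all injured libraries below the controls. Differences between days were tested on these same libraries, with edgeR's quasi-likelihood test over all 12 libraries and Benjamini-Hochberg adjustment over 17687 genes. Genes above the cap at any of the days could not be among the 85, whereas all genes tested had no cap. Counts of the 85 set beside shares of all genes are therefore in part fixed by the rule. All 85 genes passed the filter on low counts. They were called at an adjusted p under 0.05, and log2 fold changes are given with their standard error (SE).

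From day 7 to day 14, 16 of the 85 genes rose and 1 fell. Of all tested genes, which had no cap, 7.59% were called higher and 12% lower. The cap at day 7 left out genes that were high then and fell later, so the low count of falls is in part set by the rule. The median difference was 0.45 (log2), against 0.01 over all genes, and 64 of the 85 were above 0. In 26 genes every day-14 library was above every day-7 library, against 24.6% of all genes, and in 1 gene below, against 13.8%. Those that rose came from most role groups: the matrix genes Spock2, PCOLCE2, Col25a1 and LOC102553088, the muscle genes Tacr2, Pcp4, Pygm and Smyd1, the transport genes Wnk2, Scn7a and Abca8a, the nerve genes Cntn1 and Slitrk6, the signalling genes Rgs6 and Dgkb, and RGD1566029.

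Spock2 was 1.70 ± 0.38 higher at day 14 than at day 7 (log2, SE; adjusted p = 0.0108, edgeR) and PCOLCE2 0.91 ± 0.22 higher (adjusted p = 0.0149). Both kept their call in all 11 alternatives run. RGD1566029 was higher by 1.49 ± 0.35 (adjusted p = 0.0138), Tacr2 by 1.29 ± 0.32 (adjusted p = 0.0166) and Wnk2 by 1.77 ± 0.45 (adjusted p = 0.0183). Without day-7 replicate 2 these 3 had adjusted p of 0.0570, 0.0667 and 0.0513. Tacr2 and Wnk2 also missed the threshold without day-7 replicate 3 (0.0573 and 0.0596) and without day-14 replicate 1 (0.0674 and 0.0588). Spon2 fell by 0.76 ± 0.23 (adjusted p = 0.0353), and its adjusted p was 0.0574 to 0.119 without day-7 replicate 1 or 3 or any 1 day-14 library. The count of genes that rose depended on single libraries: it was 27 without day-7 replicate 1, 3 without replicate 2, 3 without replicate 3, 5 without day-14 replicate 1 and 10 without day-14 replicate 3.

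From day 14 to day 28, 4 of the 85 genes fell and 0 were called higher by edgeR. Of all genes, which had no cap, 1.22% were called lower and 3.13% higher. The cap at day 28 left out genes that rose past it by then, so the lack of higher calls is in part set by the rule. At an unadjusted p under 0.05 there were 11 genes in either direction, and DESeq2 also called 0 higher. The median difference was −0.28, and 67 of the 85 were below 0. In 12 genes every day-28 library was below every day-14 library, against 8.38% of all genes, and in 1 above, against 13.7%. Brinp2 fell by 2.48 ± 0.42 (log2, SE; adjusted p = 0.0102), Egfl6 by 2.48 ± 0.43 (adjusted p = 0.0114), Gpr137c by 2.12 ± 0.43 (adjusted p = 0.0214) and Cyp3a18 by 1.97 ± 0.48 (adjusted p = 0.0423). All 4 had 3 day-28 libraries below the lowest of day 14. Gpr137c missed the threshold without day-14 replicate 1 (adjusted p = 0.0597), day-28 replicate 2 (0.0513) or day-28 replicate 3 (0.0743). Cyp3a18 did so without day-14 replicate 1 or 2 or day-28 replicate 2 or 3 (0.0930 to 0.134). Without day-14 replicate 1, day-28 replicate 2 or day-28 replicate 3, 2 genes were called lower, and without day-28 replicate 1, 1 gene was called higher.

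At day 28, 5 of the 85 genes were higher than at day 7 and 4 were lower, against 7.89% and 10.8% of all genes, which had no cap. The median difference was 0.12. No overlap was seen in 13 genes that were higher, against 29.2% of all genes, and in 4 that were lower, against 12.1%. The 5 were Vit, higher by 2.26 ± 0.67 (log2, SE; adjusted p = 0.0354), Slitrk6 by 1.27 ± 0.33 (0.0202), RGD1566029 by 1.24 ± 0.35 (0.0305), Tacr2 by 1.01 ± 0.32 (0.0465) and Cntn1 by 0.74 ± 0.20 (0.0262). The 4 were again Brinp2 (log2 −2.84 ± 0.42, adjusted p = 0.00139), Cyp3a18 (−1.97 ± 0.48, 0.0163), Egfl6 (−1.74 ± 0.43, 0.0165) and Gpr137c (−1.57 ± 0.43, 0.0253). Egfl6 overlapped between the 2 days in 1 library, and the other 3 did not overlap.

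Only Brinp2 kept its call between day 28 and day 7 in all 11 alternatives. Each of the 5 higher genes missed the threshold without day-7 replicate 2 (adjusted p 0.0685 to 0.152) and without day-7 replicate 3 (0.0637 to 0.144). The count of higher genes was 19 without day-7 replicate 1, 0 without replicate 2, 0 without replicate 3, 2 without day-28 replicate 1 and 3 without day-28 replicate 3. The count of lower genes was 1 without day-7 replicate 2 and 2 without day-28 replicate 3. With the replicate number as a block, 11 genes were called higher.

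**Figure D4:**
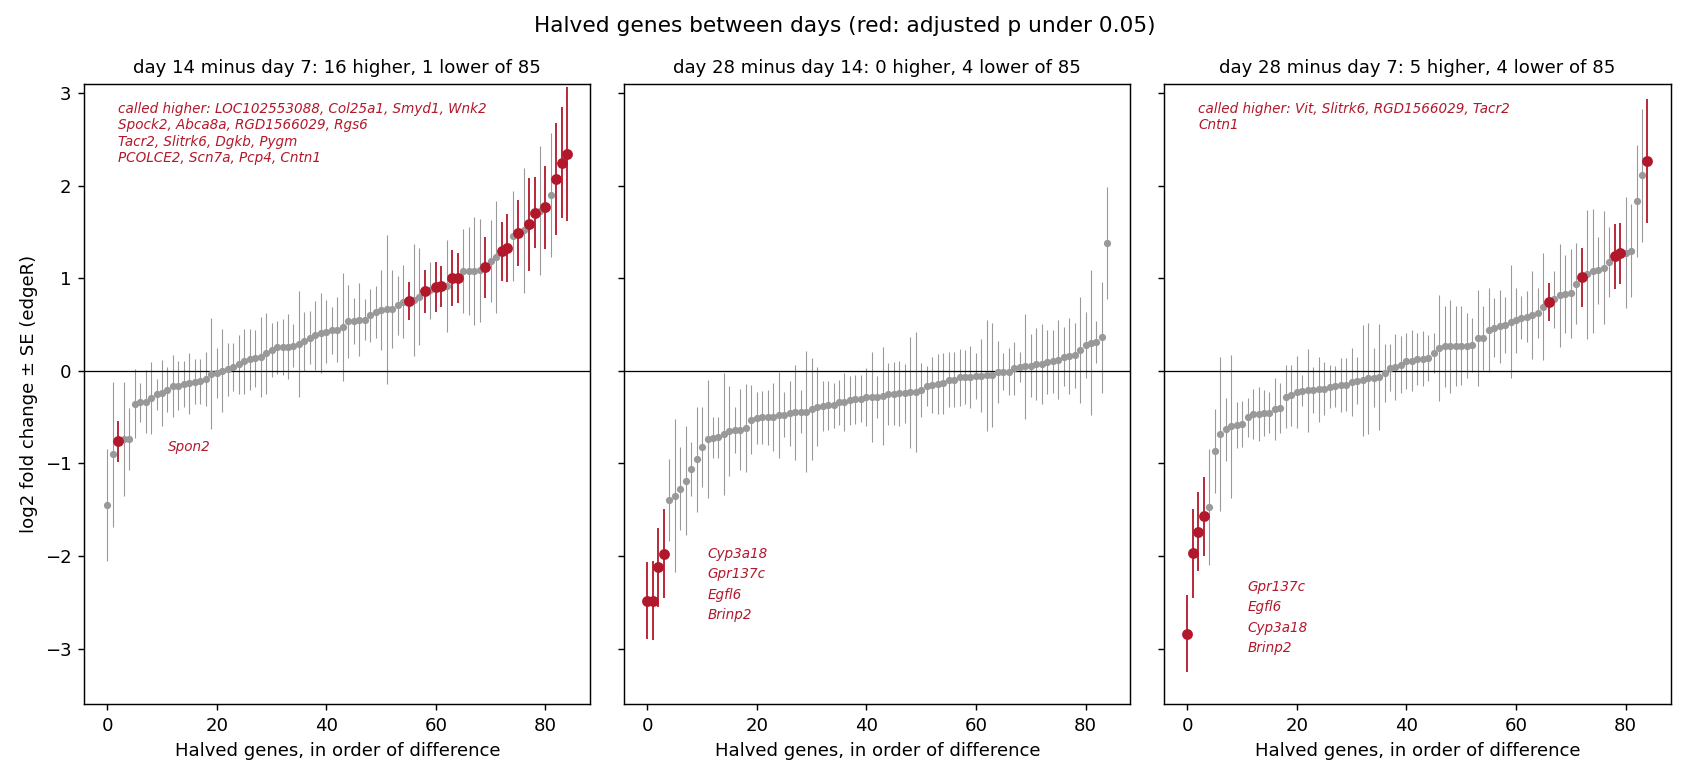
Log2 fold change with its SE (edgeR) of the 85 halved genes, in order of size, for day 14 minus day 7, day 28 minus day 14 and day 28 minus day 7; red marks an adjusted p under 0.05. The day-14 minus day-7 points lie mostly above 0 (64 of 85), the day-28 minus day-14 points mostly below (67 of 85), with Brinp2, Egfl6, Gpr137c and Cyp3a18 lowest.

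Several halved genes have close relatives in the genome that carry out the same reaction or bind the same ligand. Of 31 tested relatives in 14 families, 9 rose and 3 fell at day 7, 1 fell at day 14, and 5 rose and 3 fell at day 28. Of all genes tested, 15.6% rose and 10.5% fell at day 7, 1.45% and 0.995% at day 14, and 11% and 7.51% at day 28. The 3 comparisons share the control libraries. The relatives were picked after the 85 genes were known, by family name alone. Only 16 families were listed, so most of the 85 genes have no relative here. Relatives that were themselves halved are not among the 31, so the counts lean away from relatives that fell.

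Of the sodium pump's beta subunits, Atp1b1 and Atp1b2 were level in controls, at 36.8 and 38.3 TPM. At day 28 they stood at 180 and 14.9 TPM, and Atp1b1 had risen by 2.26 ± 0.41 (log2, SE; adjusted p = 0.00360). Its rise at day 7 (1.25 ± 0.40, adjusted p = 0.0394) lost its call in 4 of 11 alternatives. Atp1b3 rose at day 28 by 0.82 ± 0.09 (adjusted p = 0.000274) to 392 TPM, against 217 TPM in controls.

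Among enzymes of energy metabolism, Eno1, the enolase of most cells, rose at day 7 by 0.83 ± 0.17 (adjusted p = 0.00418), while Eno3 stood at 5.29 TPM at day 7 against 16.9 TPM in controls. Brain-type glycogen phosphorylase Pygb, at 150, 252, 207 and 302 TPM in the 4 groups, fell by 0.88 ± 0.15 at day 7 (adjusted p = 0.00169) and by 0.57 ± 0.15 at day 28 (adjusted p = 0.0210). The day-28 call of Pygb was lost in 4 of 11 alternatives. The liver form Pygl was not called, at 48.3, 63.9, 67.3 and 58.4 TPM.

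Of receptors and signalling enzymes, Tacr1, the substance P receptor, had 9.22, 12.2, 9.58 and 9.34 TPM at day 7, day 14, day 28 and in controls, where Tacr2 had 10.7, 29.3, 23.7 and 76.5. The differences of Tacr1 from control were 0.11 ± 0.15, 0.34 ± 0.15 and 0.01 ± 0.15, with adjusted p of 0.631, 0.262 and 0.980. The calmodulin-activated phosphodiesterase Pde1a rose at day 7 by 1.13 ± 0.23 (adjusted p = 0.00471).

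Pcolce rose by 1.40 ± 0.23 at day 7 (adjusted p = 0.00151), to 323 TPM against 134 in controls, while PCOLCE2 stood at 8.12 against 58.9 TPM. Pappa rose by 1.69 ± 0.21 at day 7 (adjusted p = 0.000371) and by 1.06 ± 0.21 at day 28 (adjusted p = 0.00590), and Pappa2 stood at 0.209 and 0.343 TPM at those days, against 2.43 in controls. Beside Lgi4, its relative Lgi2 fell by 2.88 ± 0.35 at day 14 (adjusted p = 0.00732) and by 2.52 ± 0.34 at day 28 (adjusted p = 0.000749). The neurofilament subunits Nefm and Nefh were not called at any day, with adjusted p of 0.0857 to 0.873. The calls printed for relatives in this and the foregoing sentences were kept in all 11 alternatives, apart from those said to have been lost. Nefh, not called at day 28, was called there in 1 of 11 alternatives.

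**Figure D5:**
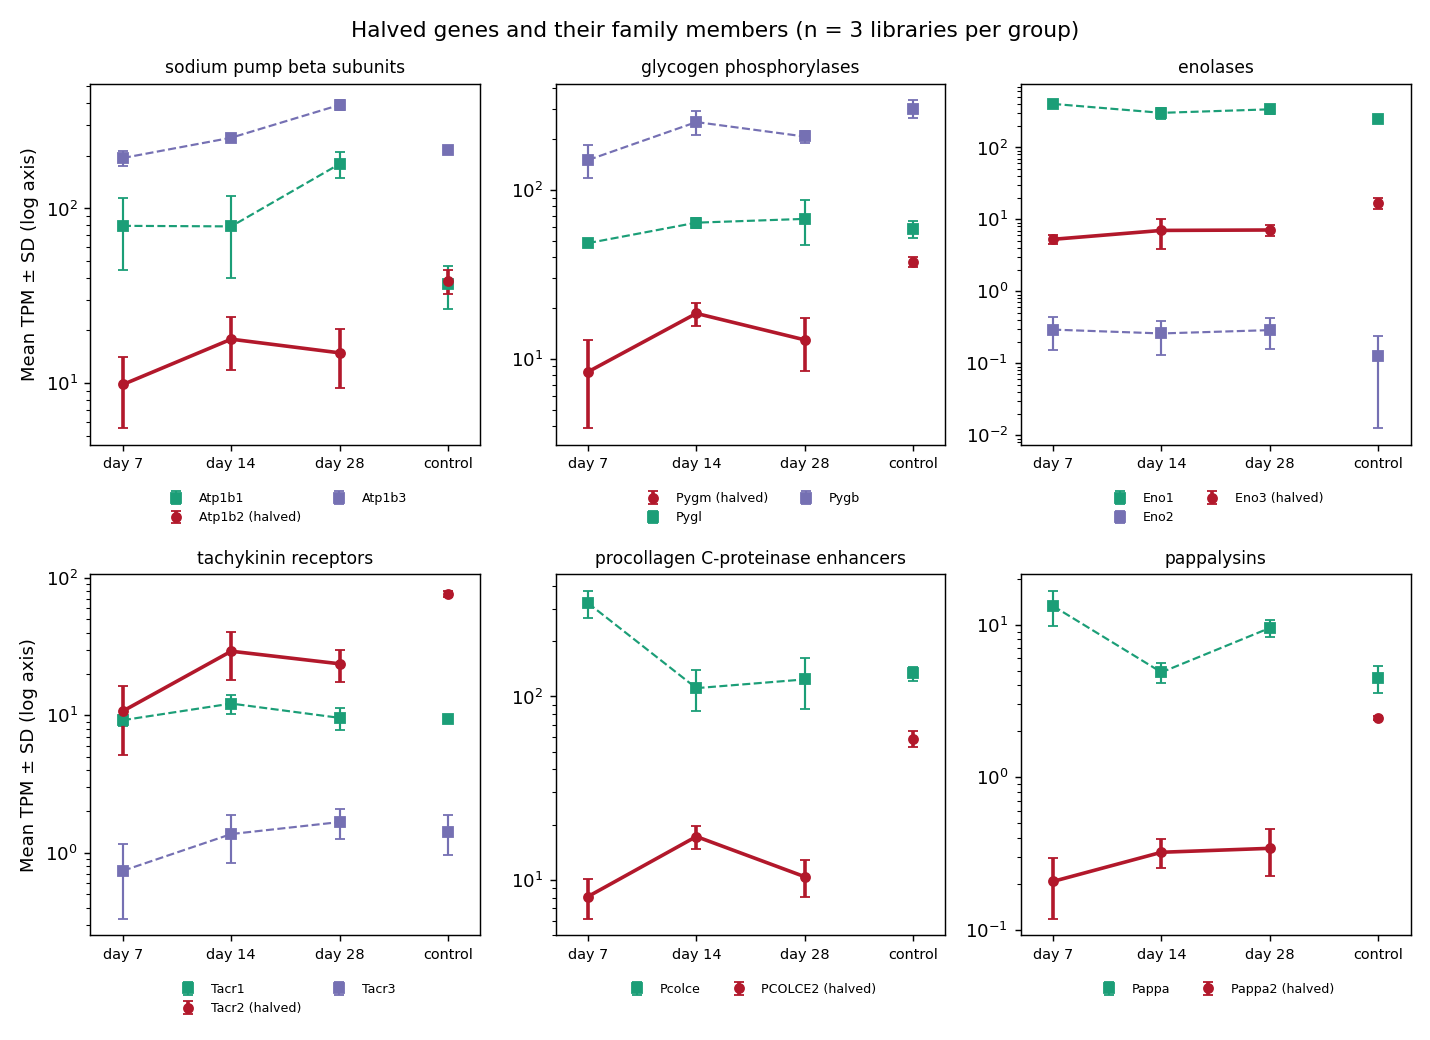
Mean TPM ± SD (log axis, n = 3 libraries per group) of 6 halved genes (red) and their family members at day 7, day 14, day 28 and in controls. Atp1b1 and Atp1b2 start level in controls and stand at 180 and 14.9 TPM at day 28; family members under 0.01 TPM in any group are not drawn.

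In 7 of 21 fixed gene lists at least 1 halved gene was found, and the other genes of these lists give their surroundings. List genes that met the values of the rule and were left out by name are not counted in the lists, since their direction was fixed in the same way. Each count below is to be set beside the shares of all genes tested. These were 15.6% called higher and 10.5% lower at day 7, 1.45% and 0.995% at day 14, and 11% and 7.51% at day 28. A count near these shares says nothing particular about a list. The list of oxidation, conjugation and detoxification enzymes held Ces1d and Aox3. Of its 25 other tested genes, 15 fell at day 7 (median −0.89, against −0.01 over all genes), 1 fell at day 14, and 1 rose and 3 fell at day 28. The sum over the 32 genes of the list with a count row, Ces1d and Aox3 among them, was 1150 to 1335 CPM at day 7, 1966 to 2013 at day 14, 2358 to 2812 at day 28 and 2391 to 2503 in controls, so day 28 overlapped control. The bilirubin-conjugating enzyme Ugt1a1 fell by 0.89 ± 0.11 at day 7 (adjusted p = 0.000297, edgeR) and epoxide hydrolase Ephx1 by 0.82 ± 0.14 (adjusted p = 0.00165), and neither was called later.

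The resting fibroblast list held Abca8a and PCOLCE2. Summed over 27 genes it lay at 4696 to 8056 CPM at day 7, 5863 to 8421 at day 14 and 5018 to 7535 at day 28, below the 9805 to 11784.5 CPM of controls. Of the 24 others, 7 rose and 3 fell at day 7, and 2 rose and 3 fell at day 28. The actin-severing protein Gsn fell by 2.56 ± 0.24 at day 7 (adjusted p = 9.60e-05) and 1.24 ± 0.23 at day 28 (adjusted p = 0.00406), whereas the matrix protein Fbln2 rose by 3.19 ± 0.45 at day 7 (adjusted p = 0.000574). The median difference of these 24 genes was 0.17 at day 7, −0.33 at day 14 and −0.27 at day 28. Genes of the list thus moved in both directions, while its sum was lower in all 9 injured libraries.

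Of the nerve lists, Schwann cell and myelin markers held Scn7a and Sox10, and neuron and autonomic nerve markers held Nefl and Stmn2. Of 16 other Schwann cell genes, 3 rose and 4 fell at day 7, against 15.6% and 10.5% of all genes. At day 28, 2 rose and 3 fell, against 11% and 7.51%. The adhesion protein L1cam fell by 1.04 ± 0.13 at day 7 (adjusted p = 0.000387), and Ncam1, a marker of non-myelinating and repair Schwann cells, rose by 1.62 ± 0.23 (adjusted p = 0.000563). Of 8 other neuronal genes, 2 rose and 2 fell at day 7. Their median difference was 0.96 at day 7, −0.42 at day 14 and −0.32 at day 28. At day 7 Syt1, the calcium sensor of transmitter release, fell by 1.97 ± 0.35 (adjusted p = 0.00206) and Uchl1 by 0.68 ± 0.14 (adjusted p = 0.00478). The tubulin Tubb3 rose by 4.90 ± 0.66 at that day (adjusted p = 0.000486). The 20 neuronal genes summed to 427 to 474 CPM at day 7, 563 to 745 at day 14, 533 to 678 at day 28 and 703 to 812 in controls, and the 20 Schwann cell genes to 1004 to 1061, 1166 to 1409, 1310 to 1666 and 1381 to 1493 CPM.

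Of 13 further genes of the interstitial cell list, 4 rose and 1 fell at day 7. The receptor list of bladder control held Tacr2. Of its 31 other genes 7 rose and 2 fell at day 7, and 4 rose and 5 fell at day 28, among them the serotonin receptor Htr4, which fell by 1.17 ± 0.13 at day 7 (adjusted p = 0.000207) and by 0.93 ± 0.13 at day 28 (adjusted p = 0.000843). The transporter list held Atp1b2, and of 22 further genes 5 rose and 7 fell at day 7, and 6 rose and 3 fell at day 28.

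Smooth muscle contraction held none of the 85 genes. Of its 30 genes, 7 rose and 9 fell at day 7 and 1 rose and 7 fell at day 28. At day 14 only the integrin Itga8 was called, higher by 2.77 ± 0.55 (adjusted p = 0.0308). Among the rest of the lists, all 18 cell cycle genes rose at day 7 and 12 at day 28, and 15, 6 and 16 of 16 macrophage and myeloid genes rose at days 7, 14 and 28. Of 25 urothelial genes, 9 fell at day 7, 1 rose at day 14, and 3 rose and 6 fell at day 28. The day-14 calls depended on every control: over all lists, here with the genes left out by name, 14 genes were called higher and 9 lower at day 14, and 1 and 1 without any 1 control library. On the same genes, the 84 calls of lower genes at day 7 became 54 without day-7 replicate 2 and 56 without control replicate 1.

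Position bears on how far single values can be read. Another gene overlaps 30 of the 85, on the same strand in 16, and in 7 the other gene holds more counts: Lgi4, Smyd1, Sult5a1, Mettl7b, Ppp1r1a, LOC102553088 and Plppr3. No source used here gives the strand setting of the counting, so these 7 are uncertain. The median length of the 85 genes was 3593 bases, against 3184 for the 11249 genes, and no chromosome held more than 9 of them, the most being on chromosome 7, with 10.6% of the set against 6.49% of the 11249.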

How the data were processed

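The authors sequenced ribosome-depleted total RNA of whole bladder as single reads of 50 bases and deposited, per the file headers, a count and a TPM value (abundance per transcript length, scaled to one total per library) per gene and library. Per the submitters' processing notes the tools were HTSeq 0.11.2, HISAT2 2.1.0 and bcl2fastq and the build was rn6, with no roles named. No source used here gives the strand setting. CPM was computed from the deposited counts and library totals. Differences in counts were assessed by edgeR 4.0.16 (R 4.3.3) (TMM scaling, quasi-likelihood test, all 12 libraries, 1 term per group). The filter was filterByExpr (minimum count 10, minimum total 15), which left 17687 genes. SE is the log2 fold change over the square root of F. DESeq2 1.42.0, RLE scaling, no filter, a replicate block, 2-group fits and leaving out each library were alternatives. limma 3.58.1, Python 3.11.15, pandas 2.3.3, numpy 2.4.6 and matplotlib 3.10.9 were also used. The 3 day-against-control comparisons share the control libraries.

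The genes and lists were chosen with earlier results of these data known. Genes were named by rule: the 12 with the highest control CPM, the 12 with the lowest mean share of control, those called between days, those in a list, and those at the 50% limit. Others, such as Sgca, Eno3, Lgr5, Lgi4, Adam22, Tet1 and Igf2bp3, were named for their role after their values were seen. Replicate numbers were not treated as pairs in the main fit. Of 18 same-numbered pairs, 5 had deviations that correlated by more than 0.1, over a range of −0.02 to 0.15. Differently numbered pairs were not examined, so these values cannot show whether the numbers pair the samples. The fit was tested on simulated counts. Promoter sequences are RefSeq, GRCr8. Some genes are not reported here by name, although every count over the set includes them.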

Additional observations from a re-analysis of the deposited data

Results flagged for a closer look

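For some halved genes the difference from control was not the same at 2 of the days, by the edgeR test of the difference between those days (log2, adjusted p under 0.05). Between day 14 and day 7 these were Spock2 (1.70), RGD1566029 (1.49), PCOLCE2 (0.91), Tacr2 (1.29), Wnk2 (1.77), Col25a1 (2.25), Dgkb (1.00), Pcp4 (0.86), Cntn1 (0.75), Rgs6 (1.33), Slitrk6 (1.12), Smyd1 (2.07), Scn7a (0.91), Pygm (1.00), LOC102553088 (2.34) and Abca8a (1.58), which were higher at day 14, and Spon2 (−0.76), which was lower. Between day 28 and day 14, Brinp2 (−2.48), Egfl6 (−2.48), Gpr137c (−2.12) and Cyp3a18 (−1.97) were lower at day 28. Between day 28 and day 7, Slitrk6 (1.27), Cntn1 (0.74), RGD1566029 (1.24), Vit (2.26) and Tacr2 (1.01) were higher at day 28, and Brinp2 (−2.84), Cyp3a18 (−1.97), Egfl6 (−1.74) and Gpr137c (−1.57) were lower.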

How the results depend on the processing

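The halved set held 85 genes, and 162 with a control mean of at least 1 CPM, 38 at no more than 0.4 of control and 138 at no more than 0.6. With TMM scaling it held 79 genes, 76 of them shared. Leaving out 1 library gave 75 to 100 genes. Fitting only the 2 groups compared, the genes called were 4 higher and 0 lower between day 14 and day 7, 0 lower between day 28 and day 14, and 1 higher and 1 lower between day 28 and day 7. DESeq2 called 9 lower between day 28 and day 14 and 9 higher between day 28 and day 7, where no filter on low counts also gave 9. Leaving out 1 library gave 3 to 27 higher and 0 to 1 lower (day 14 minus day 7), 0 to 1 higher and 2 to 6 lower (day 28 minus day 14), and 0 to 19 higher and 1 to 4 lower (day 28 minus day 7). The cause was not tested.

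The main fit did not treat replicate numbers as pairs. With the replicate number as a block, 20 genes were called higher between day 14 and day 7 and 11 between day 28 and day 7, and the other 4 counts between days were as without it.

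Of the other list genes, the day-14 counts were 23 higher and 14 lower without a filter on low counts, 36 higher and 26 lower with DESeq2, and 26 lower with only the 2 groups fitted. Leaving out 1 library gave 81 to 97 higher and 54 to 91 lower at day 7, 1 to 22 higher and 1 to 7 lower at day 14, and 42 to 74 higher and 28 to 59 lower at day 28. Over single genes and alternatives, 2913 values kept their side of the threshold, 207 lost it, 52 gained it and none changed sign while called. Genes that were never called and stayed so are counted as kept, so these totals do not measure how firm the calls were. Between days, Spon2 (day 14 minus day 7) and Cyp3a18 (day 28 minus day 14) lost their call in 6 of 11 alternatives. Spock2 and PCOLCE2 (day 14 minus day 7) and Brinp2 (day 28 minus day 7) lost it in 0.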
